A study of Xenopus laevis with 16 samples.

Results

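The genes described here encode integrins and the matrix proteins that integrins hold on to: fibronectin, laminins and collagens. They were chosen by the human symbol that the authors' files give each Xenopus laevis transcript: ITGA, ITGB, LAMA, LAMB or LAMC followed by a number, a numbered collagen chain, or FN1. Of 43646 transcripts, 152 fitted, with 70 human symbols: 98 collagen, 20 laminin, 20 integrin alpha, 12 integrin beta and 2 fibronectin transcripts. Names ending in .L and .S are the 2 copies that the allotetraploid frog keeps of many genes. Where the files give only a model number, the human symbol is printed beside it.

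Integrins are paired alpha and beta chains that cross the cell membrane and link the matrix outside to the actin or keratin skeleton inside. Fibronectin is bound mainly by the pair of ITGA5 and ITGB1, and in the frog gastrula a fibronectin network on the inner face of the blastocoel roof is the surface that migrating mesoderm crawls on. Laminins are trimers of an alpha, a beta and a gamma chain and, with type IV collagen, form the sheet of basement membrane beneath epithelia and around the notochord and somites. Signals of the Nodal family, to which Xnr2 belongs, turn animal cap cells into mesoderm and endoderm, and such caps elongate.

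The animal cap is the ectoderm over the blastocoel roof. Left alone it becomes epidermis. All 16 libraries are polyadenylated RNA from embryos of the strain labelled Nasco, harvested at stage 12. Dissociated caps (3 libraries) were separated into cells at stage 9. Injected caps (1 library each) came from embryos given mRNA at the 2- to 4-cell stage: BMP4, FGF8 or Xnr2 (200 pg each), Chordin or Cerberus (400 pg each), Wnt8 (16 pg), or Wnt8 and Xnr2 together (16 and 200 pg). BMP4, Wnt8, FGF8 and Xnr2 are secreted growth factors. Chordin binds BMPs, and Cerberus binds Nodal, BMP and Wnt proteins. Control caps (4 libraries) have no dissociation or injected mRNA in their labels. All caps were taken at stage 9. The last 2 libraries are the dorsal and the ventral part of embryos cut at stage 10, which hold all germ layers. The labels tie each treated library to one control, and such a family is called a control set here: set 1 holds dissociated 1, BMP4 and Chordin with control 1, set 2 dissociated 2 with control 2, set 3 dissociated 3, Wnt8 and Cerberus with control 3, and set 4 FGF8, Xnr2 and Wnt8 plus Xnr2 with control 4.

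Values are RPKM, reads scaled by transcript length and by the library's mapped reads, as deposited. The depth recovered from them ran from 25408438 mapped reads in the ventral part to 46522450 in control 3. Tables of injected caps and of embryo parts leave out transcripts whose mean in the 2 libraries they set side by side is under 1 RPKM, per the file headers. A transcript missing there was treated as unmeasured, never as 0. The label of epidermis-forming ectoderm was checked against marker genes. In controls 1 to 3, 17 epidermal marker transcripts summed to between 1254 and 2556 RPKM, and 4 muscle marker transcripts to between 0.33 and 0.70 RPKM. The 14 neural ones summed to between 104.7 and 404.1 RPKM in these controls. The 10 endoderm ones summed to between 11.1 and 47.2 RPKM, and the 23 mesoderm ones to between 5.24 and 10.1 RPKM. In control 4, 13 listed epidermal transcripts summed to 5522 RPKM. In bulk tissue, fewer cells of a type and less RNA per cell cannot be told apart. The labels do not say that replicates came from separate clutches or cultures, so p-values measure only the spread between these samples. The copies of a gene are alike in sequence, and the sources used here do not say how shared reads were counted, so every difference between an .L and an .S copy is uncertain.

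Most integrin and matrix genes gave little RNA in the late-gastrula cap, and the most abundant ones were fibronectin, ITGB1 and laminin gamma 1. Over controls 1 to 3, 25 of the 152 transcripts (16.4%) averaged at least 1 RPKM, against 15932 of all 43646 transcripts (36.5%). In 110 no library that lists the transcript reached 1 RPKM, and 9 of these, all collagens, had no read in any library. Only 9 transcripts averaged 10 RPKM or more in these controls. Collagens were the emptiest family, with 6 of 98 transcripts at 1 RPKM or more, while 6 of 20 integrin alpha, 6 of 12 integrin beta, 5 of 20 laminin and both fibronectin transcripts reached it.

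Fibronectin led the list. fn1.S stood at 51.5 ± 19.5 RPKM and fn1.L at 28.6 ± 7.90 RPKM in controls 1 to 3 (SD, n = 3). Of the subunits of its receptor, the ITGB1 model Xelaev18030727m was at 35.1 ± 7.09 RPKM, between the fibronectin copies, and the ITGB1 model Xelaev18032868m at 17.9 ± 5.08 RPKM. The alpha chain was lower, with itga5.L at 11.8 ± 2.85 RPKM, and itga5.S, the other copy, reached no more than 1.43 RPKM in any cap library. Laminin gamma 1, the chain shared by most laminins, was the most abundant laminin, with lamc1.L at 17.9 ± 5.94 and lamc1.S at 12.9 ± 5.19 RPKM. The rest of the 12 highest were col18a1.L, a basement membrane collagen (12.2 ± 7.72 RPKM), the ITGB5 model Xelaev18044357m, a vitronectin receptor chain (10.0 ± 5.74 RPKM), the laminin receptor chains itga6.L (8.31 ± 1.87 RPKM) and itga3.S (5.34 ± 1.12 RPKM), and lamb1.L (4.52 ± 5.52 RPKM). All 11 neighbouring pairs among these 12 transcripts overlapped over the 3 controls, so the order is one of means only.

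The low end holds several textbook basement membrane and connective tissue genes. All 9 transcripts of type IV collagen chains stayed below 1 RPKM in every library that lists them, the highest being col4a5-like.L (human symbol COL4A1) at 0.349 RPKM in dissociated 2. The 2 transcripts of ITGB4, the partner of ITGA6 in hemidesmosomes, reached at most 0.377 RPKM (itgb4-like.L) and 0.311 RPKM (itgb4-like.S). The 11 type VI collagen transcripts reached 0.237 RPKM at most. Of the 3 transcripts matched to COL2A1, the cartilage and notochord collagen, Xelaev18013523m and Xelaev18015990m stayed at or below 0.031 RPKM, and col5a2.S, whose frog and human names differ, is described with the control sets below.

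Xnr2 was set against controls 1 to 4 in a fit over all transcripts (limma on log2(RPKM + 1), Benjamini-Hochberg adjustment, called at an adjusted p under 0.05). The transcripts called higher in Xnr2 caps were lama1-like.L, lamb3-like.S, fn1.L and the COL13A1 transcript LOC100498211-like.L. These are 4 of 29 members tested, beside 3.69% of all 14770 transcripts called higher, and none of the 29 was called lower, beside 0.447% of all. Without control 1, ITGB3 was called lower as described below. The count needs care, because a transcript is tested only if the treated library and its own control average at least 1 RPKM: 8 of the 29 were below 1 RPKM in control 4 and entered through the Xnr2 library, 3 of the 4 called transcripts among them. The fit rests on 1 Xnr2 library, which is assumed to vary like the control and dissociated libraries. Over all transcripts the median log2 change was -0.14.

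Fibronectin showed the largest gain in RNA. fn1.L had 129.6 RPKM in Xnr2 caps, against 37.1, 21.6, 27.0 and 23.4 RPKM in controls 1 to 4. The Xnr2 library lay far above every control. The log2 change was 2.24 ± 0.41 (SE), with a limma adjusted p of 0.0163, and 2.42 against control 4 alone. It stayed called under all 14 alternatives tried. From recovered reads, fn1.L was 5.54 times its own control (95% exact interval 5.40 to 5.69, counting error only). The other copy, fn1.S, had 97.6 RPKM in Xnr2 caps, against 70.9, 31.9, 51.7 and 47.3 RPKM in controls 1 to 4. It too lay above every control, but its log2 change of 0.99 ± 0.45 missed the threshold (limma adjusted p = 0.353). Summed over both copies, fibronectin stood at 227.2 RPKM in Xnr2 caps, against 53.5 to 108.1 RPKM in the 4 controls.

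ITGA5 and ITGB1, the chains of the main fibronectin receptor, lay higher without passing the threshold. The ITGB1 model Xelaev18032868m had 52.6 RPKM in Xnr2 caps, against 13.4, 17.0, 23.4 and 17.6 RPKM in controls 1 to 4. The Xnr2 value exceeded all 4 controls, with a log2 change of 1.54 ± 0.39 and a limma adjusted p of 0.0822, which became 0.0313 with voom on the recovered reads. The second ITGB1 model, Xelaev18030727m, was at 44.2 RPKM in Xnr2 caps and between 26.9 and 39.2 RPKM in controls (log2 change 0.43, limma adjusted p = 0.533). itga5.L had 23.0 RPKM in Xnr2 caps, against 9.63, 15.1, 10.8 and 8.25 RPKM in controls 1 to 4, above them all (log2 change 1.04 ± 0.44, limma adjusted p = 0.327). itgb6.L encodes a chain that pairs with ITGAV, binds fibronectin and releases TGF-beta from its latent form. It had 2.11 RPKM in Xnr2 caps and between 0.10 and 0.42 RPKM in controls (log2 change 1.36 ± 0.34, limma adjusted p = 0.0724). The beta chains ITGB3 and ITGB5 did not lie higher. The ITGB3 model Xelaev18043375m, a vitronectin receptor chain, had 0.29 RPKM in Xnr2 caps, against 0.16, 1.96, 3.81 and 2.87 RPKM in controls 1 to 4. It was below 3 controls and above control 1 (log2 change -1.13 ± 0.65, limma adjusted p = 0.442), and without control 1 its log2 change was -1.56 with an adjusted p of 0.0379. The ITGB5 model Xelaev18044357m had 7.68 RPKM in Xnr2 caps and between 6.05 and 16.6 RPKM in controls, and the ITGB5 model Xelaev18046921m had 1.83 RPKM, below controls at 2.32 to 4.73 RPKM.

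**Figure D1:**
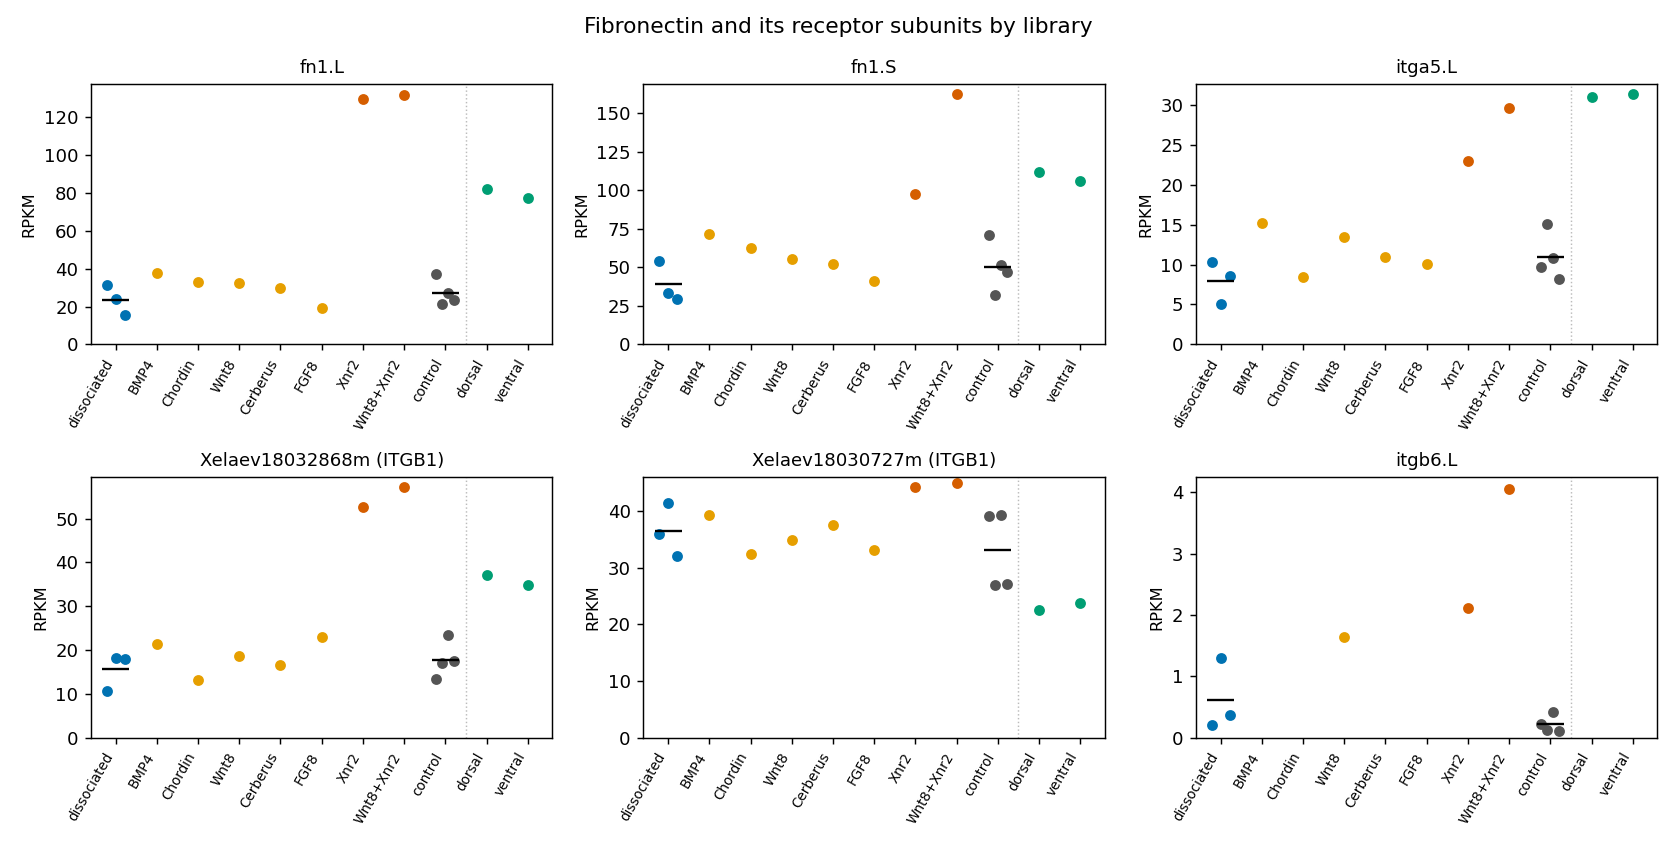
RPKM of both fibronectin copies, itga5.L, the ITGB1 models and itgb6.L in every library that lists them. Treated caps are left of the control caps, and embryo parts are behind the dotted line. The ITGB3 and ITGB5 models, which did not lie higher in Xnr2 caps, are not shown. Each point is 1 library, black bars are group means, and a group without a point is not listed there. fn1.L stands at 129.6 RPKM in Xnr2 caps and 131.8 RPKM in Wnt8 plus Xnr2 caps, above all control caps.

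A laminin alpha chain appeared that control caps hardly contained. Laminin alpha 1, which with beta 1 and gamma 1 makes the early embryonic laminin, is represented by lama1-like.L. It had 16.3 RPKM in Xnr2 caps, against 0.03, 0.06, 0.05 and 0.07 RPKM in controls 1 to 4. All controls were near 0 and the Xnr2 library stood apart from them. The log2 change was 4.04 ± 0.23 (limma adjusted p = 1.07e-05), a value that depends on the pseudocount for a gene this low. The reads themselves, 4719 in Xnr2 caps against 25 in control 4, give a ratio of 230.2 per mapped read (95% exact interval 155.8 to 356.2, counting error only). The other 2 chains of that trimer differed. For laminin beta 1, lamb1.L had 42.1 RPKM in Xnr2 caps, against 0.39, 10.8, 2.39 and 5.54 RPKM in controls 1 to 4, and lamb1.S had 37.4 RPKM, against 0.30, 0.60, 0.41 and 11.5 RPKM. Both copies exceeded every control, but the controls themselves spread over more than 10 RPKM and neither was called (log2 changes 3.30 ± 1.12 and 3.96 ± 1.12, limma adjusted p = 0.217 and 0.120). Control 4, the Xnr2 library's own control, decided the size for lamb1.S: its log2 change was 4.74 without control 4 (limma adjusted p = 0.000497) and 1.61 against control 4 alone, where blocking by control set gave an adjusted p of 0.131. The copies summed to 79.5 RPKM in Xnr2 caps, against 0.70 to 17.1 RPKM in the 4 controls. Another LAMB1 transcript, LOC100170549.L, stayed at or below 0.12 RPKM in the 6 libraries that list it. Laminin gamma 1 lay within the controls: lamc1.L was at 21.8 RPKM in Xnr2 caps and between 11.1 and 22.3 RPKM in controls, and lamc1.S at 13.6 RPKM and between 8.20 and 18.4 RPKM.

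lamb3-like.S encodes the beta chain of an epithelial laminin. It had 2.37 RPKM in Xnr2 caps, against 0.05, 0.02, 0.16 and 0.07 RPKM in controls 1 to 4. Every control was near 0, and the log2 change of 1.65 ± 0.16 was called under all 14 alternatives (limma adjusted p = 0.000283). COL13A1 is a collagen that spans the cell membrane. Its transcript had 2.08 RPKM in Xnr2 caps, against 0.35, 0.52, 0.65 and 0.41 RPKM in controls 1 to 4. This is 25 reads against 6 in control 4. The call was marginal (log2 change 1.06 ± 0.23, limma adjusted p = 0.0420), was lost in the fit with control sets as blocks (adjusted p = 0.0714) and held under 3 of 14 alternatives.

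**Figure D2:**
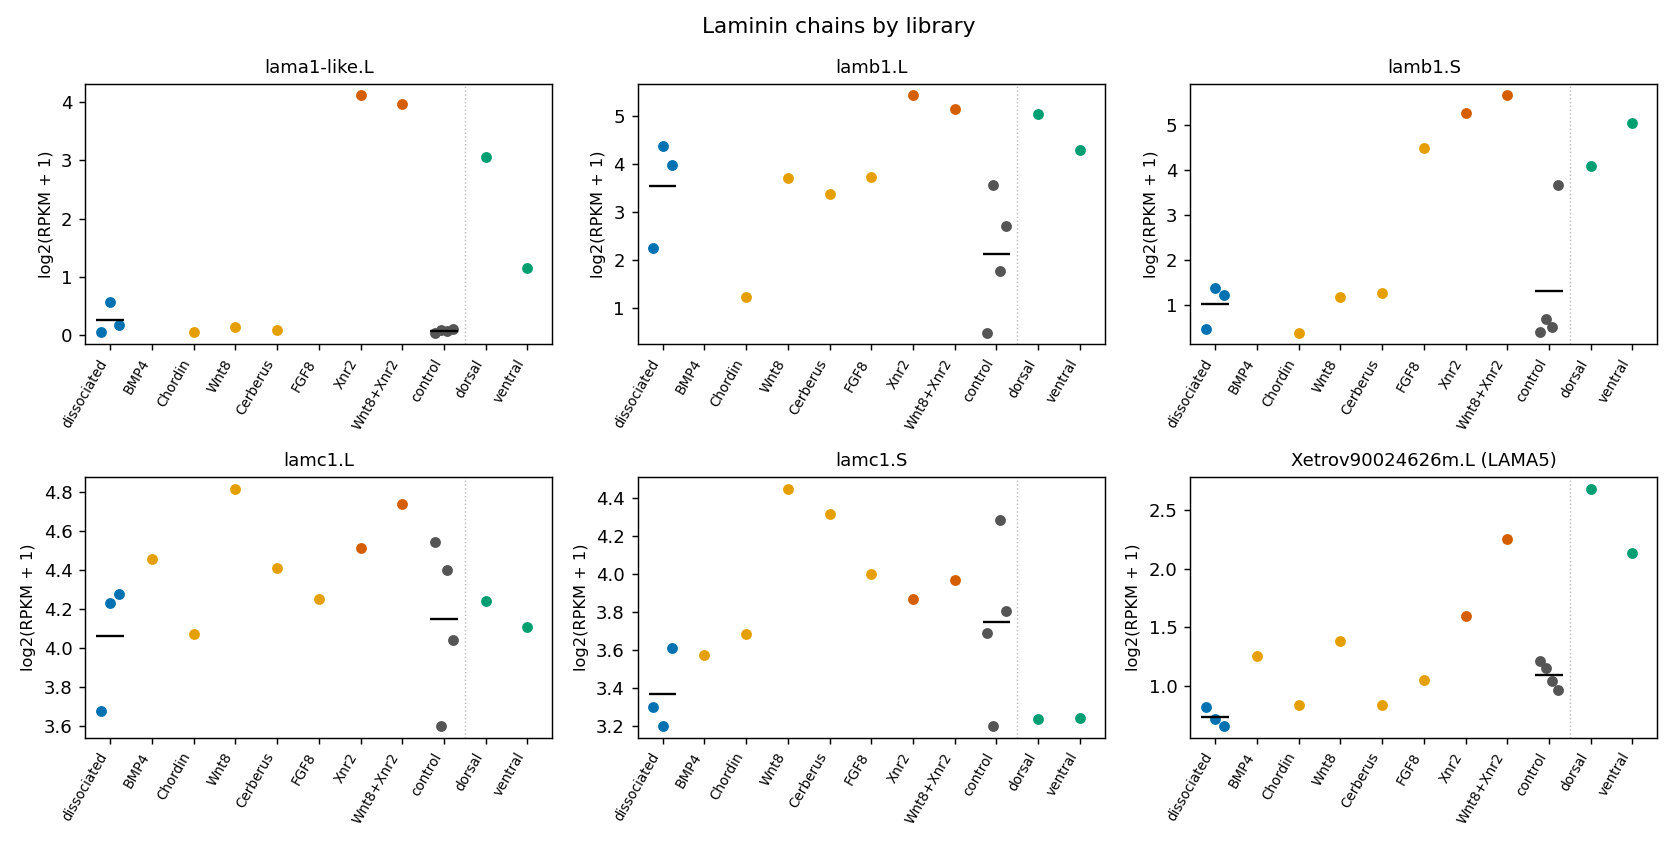
Laminin chain levels as log2(RPKM + 1) in every library that lists them, with treated caps left of the control caps and embryo parts behind the dotted line. Points are single libraries, black bars are group means, and vertical axes differ and need not start at 0. lama1-like.L is near 0 in all control caps and at 16.3 RPKM in Xnr2 caps, while control 4 stands apart from controls 1 to 3 for lamb1.S.

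Not every member lay higher. itga3.S, a laminin receptor chain, had 2.59 RPKM in Xnr2 caps, against 4.10, 6.26, 5.67 and 5.22 RPKM in controls 1 to 4, below all of them (log2 change -0.80 ± 0.34, limma adjusted p = 0.324), while its copy itga3.L had 4.75 RPKM in Xnr2 caps, above controls at 1.44 to 3.86 RPKM. The copies of ITGA3 summed to 7.34 RPKM in Xnr2 caps, inside the range of 5.53 to 9.54 RPKM in the 4 controls. col18a1.L was at 4.19 RPKM in Xnr2 caps and between 4.40 and 19.8 RPKM in controls. In all, 17 of 29 members lay above every control, beside 22.7% of all tested transcripts, and 4 of 29 below, beside 32.8%. The same filter acts on these shares: the 8 members below 1 RPKM in control 4 all lay above every control. Xnr2 caps also differed in their cell type markers. Of 23 mesoderm marker transcripts, 20 were listed, and they summed to 2804 RPKM in Xnr2 caps and 6.40 RPKM in control 4, where 5 of them were at 0. The 13 listed epidermal transcripts summed to 1637 RPKM in Xnr2 caps and 5522 RPKM in control 4. All 17 summed to between 1254 and 2556 RPKM in controls 1 to 3. The epidermal sum in Xnr2 caps was thus below that of its own control. It cannot be set against controls 1 to 3, because the transcripts summed differ and 3 of the 17 were at 0 there. The 5 listed endoderm transcripts summed to 195.8 RPKM in Xnr2 caps and 36.0 RPKM in control 4. The part of these cell type differences in the values above was not tested.

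Wnt8 with Xnr2 gave 5 called transcripts, all higher: fn1.L and lama1-like.L as with Xnr2 alone, and col9a1.L, itgb6.L and the LAMA5 transcript Xetrov90024626m.L. That is 5 of 27 members tested, beside 3.5% of all 14989 transcripts called higher, and 0 were called lower, beside 0.24%. Above every control lay 15 of the 27, beside 19.9% of all, and below every control 2 of 27, beside 22.4%. Of the 27, 6 were below 1 RPKM in control 4, and 4 of the 5 called transcripts are among those 6. All 6 also lay above every control, so the filter acts on the shares above and below every control too. The Xnr2 and the Wnt8 plus Xnr2 fits use the same 4 controls, so they are not independent of each other.

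fn1.L had 131.8 RPKM in Wnt8 plus Xnr2 caps, against the control values given above, and a log2 change of 2.26 ± 0.41 (limma adjusted p = 0.0165, called under all 14 alternatives). fn1.S reached 162.6 RPKM, the highest level of any member in any library, with a log2 change of 1.72 ± 0.45 that missed the threshold (limma adjusted p = 0.0984). It was called under only 2 of 14 alternatives, without control 1 (adjusted p = 0.0344) and with voom on recovered reads (adjusted p = 0.0163). With control sets as blocks fn1.S was not called. The ITGB1 model Xelaev18032868m had 57.2 RPKM (log2 change 1.65 ± 0.39, limma adjusted p = 0.0659) and itga5.L 29.6 RPKM (1.39 ± 0.44, limma adjusted p = 0.198). Each of these 4 lay above every control.

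Among the laminins, lama1-like.L had 14.6 RPKM in Wnt8 plus Xnr2 caps, near 0 in controls as above (log2 change 3.89 ± 0.23, limma adjusted p = 1.2e-05). LAMA5, an alpha chain of the epidermal and later basement membranes, had 3.76 RPKM in Wnt8 plus Xnr2 caps, against 1.31, 1.22, 1.06 and 0.95 RPKM in controls 1 to 4. The 4 controls lay close together and the treated value above them (log2 change 1.16 ± 0.23, limma adjusted p = 0.0283). This call was lost with control sets as blocks (adjusted p = 0.0803) and held under 4 of 14 alternatives. The other LAMA5 copy, Xetrov90024626m.S, is listed in 8 libraries and reached 1.81 RPKM at most. lamb1.S had 49.1 RPKM (log2 change 4.34 ± 1.12, limma adjusted p = 0.0939, or 0.000342 without control 4, its own control) and lamb1.L 34.7 RPKM (3.03 ± 1.12, limma adjusted p = 0.314). Against control 4 the log2 changes were 2.00 for lamb1.S (blocked adjusted p = 0.0774) and 2.45 for lamb1.L (blocked adjusted p = 0.111).

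itgb6.L had 4.05 RPKM in Wnt8 plus Xnr2 caps, against 0.23, 0.12, 0.42 and 0.10 RPKM in controls 1 to 4. All controls were below 1 RPKM. Its log2 change was 2.06 ± 0.34 (limma adjusted p = 0.00961), and with control sets as blocks its adjusted p was 0.0778. col9a1.L is a chain of the collagen that decorates type II fibrils. It had 2.47 RPKM in Wnt8 plus Xnr2 caps, against 0.14, 0.04, 0.09 and 0.08 RPKM in controls 1 to 4, again near 0 (log2 change 1.67 ± 0.16, limma adjusted p = 0.000238). itga6.S had 4.44 RPKM, above controls at 0.41 to 2.06 RPKM (log2 change 1.49 ± 0.39, limma adjusted p = 0.0960). Its copy itga6.L had 7.06 RPKM (log2 change -0.17), within the controls. The copies summed to 11.5 RPKM in Wnt8 plus Xnr2 caps, inside the range of 6.60 to 11.8 RPKM in the 4 controls. One transcript, col16a1-like.S, was called lower only with the block, which compares Wnt8 plus Xnr2 caps with control 4 (0.27 against 2.64 RPKM, log2 change -1.52, adjusted p = 0.0398). Against all 4 controls its log2 change was -0.47 ± 0.52. The 22 listed mesoderm marker transcripts summed to 2794 RPKM in Wnt8 plus Xnr2 caps and 6.43 RPKM in control 4, and the 13 listed epidermal ones to 1341 and 5522 RPKM. All 17 epidermal ones summed to between 1254 and 2556 RPKM in controls 1 to 3. The transcripts summed differ, so the sum of the 13 cannot be set against these controls. The part of these marker differences in the values above was not tested.

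**Figure D3:**
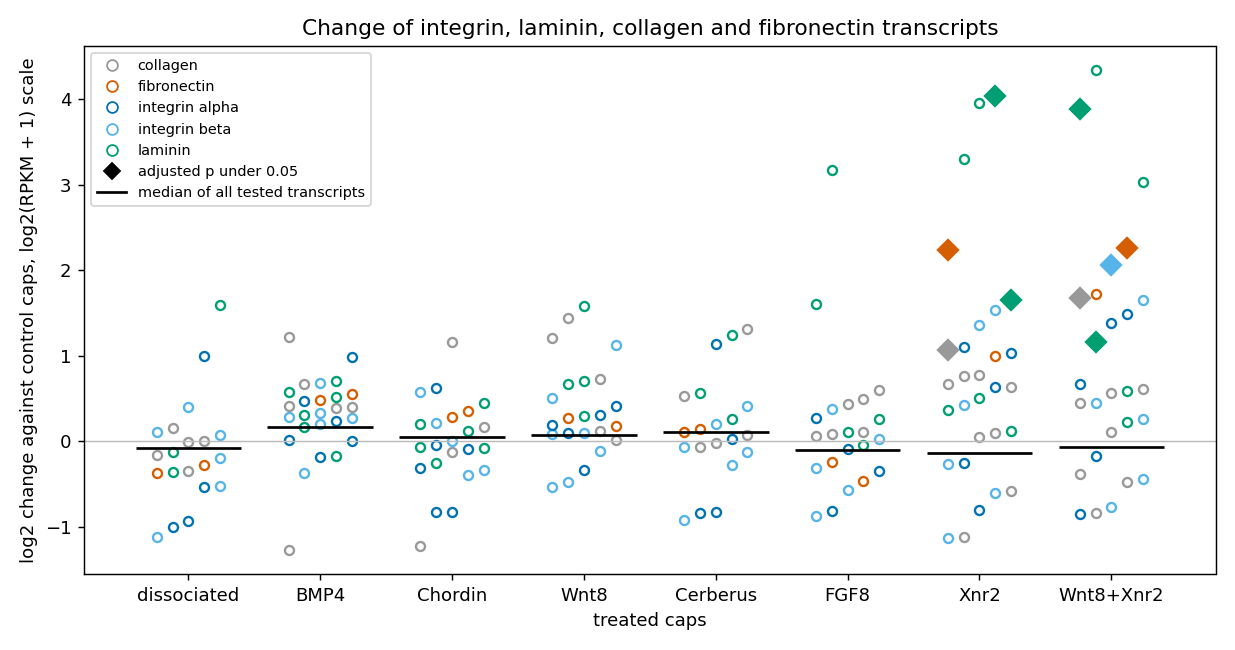
Log2 change against control caps, on the log2(RPKM + 1) scale, of every integrin, laminin, collagen and fibronectin transcript tested in each of 8 comparisons. Each symbol is 1 transcript, filled diamonds have a limma adjusted p under 0.05, and black lines are the medians of all tested transcripts. Diamonds appear in the Xnr2 (4) and Wnt8 plus Xnr2 (5) columns, and the transcripts tested differ between columns because of the filter at 1 RPKM.

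Wnt8 plus Xnr2 and Xnr2 caps were also set side by side, 1 library against 1, with no test. None of the 26 members compared differed by 4-fold or more on the log2(RPKM + 1) scale and reached 5 RPKM in either library, beside 0.143% of 15380 transcripts higher and 0.091% lower in Wnt8 plus Xnr2 caps. The largest difference among abundant members was fn1.S, with 162.6 RPKM in Wnt8 plus Xnr2 caps and 97.6 RPKM in Xnr2 caps, a ratio of 1.67 (95% exact interval 1.64 to 1.69, counting error only). fn1.L hardly differed, with 131.8 RPKM in Wnt8 plus Xnr2 caps and 129.6 RPKM in Xnr2 caps. The ratio of fn1.L to fn1.S was thus 0.81 in Wnt8 plus Xnr2 caps and 1.33 in Xnr2 caps, while it was between 0.49 and 0.68 in the 4 controls, and no other cap library exceeded 0.72. Among lower members, the ITGB3 model Xelaev18043375m had 1.08 RPKM in Wnt8 plus Xnr2 caps and 0.29 RPKM in Xnr2 caps. From 128 and 31 reads its ratio was 3.68 (95% exact interval 2.47 to 5.63, counting error only). itgb6.L had 4.05 RPKM in Wnt8 plus Xnr2 caps and 2.11 RPKM in Xnr2 caps, and LAMA5 (Xetrov90024626m.L) 3.76 and 2.02 RPKM. lamb1.L was lower in Wnt8 plus Xnr2 caps, at 34.7 RPKM against 42.1 RPKM.

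Separating the cap into single cells changed no integrin or matrix transcript past the threshold in limma fits of log2(RPKM + 1) over 6 libraries. This held without and with control sets as blocks, where the lowest adjusted p was 0.0595 (itga6.L). Of 20 members tested without the block, limma called 0, beside 0.316% of 15820 transcripts, and voom on recovered reads called 0 as well. At an unadjusted p under 0.05 there were 3, all of them integrin alpha chains that bind laminin: itga6.L higher (beside 4.03% of all transcripts) and itga3.S and itga3.L lower (beside 5.57%). With 20 members tested, these counts do not stand apart from the shares over all transcripts. The transcripts itga3.S and itga3.L are copies of the same gene. Fibronectin, ITGB1, ITGB5 and the laminin gamma chains overlapped between the groups.

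itga6.L had 13.6, 20.3 and 18.7 RPKM in dissociated caps 1 to 3, against 6.19, 9.73 and 9.00 RPKM in controls 1 to 3. The groups did not overlap, and each dissociated library was above its own control. The log2 change was 0.99 ± 0.28 (limma adjusted p = 0.251). Blocking by control set gave an adjusted p of 0.0595, and with both the block and voom on recovered reads, an alternative chosen after the data were seen, it was 0.0391. The block raised the number of transcripts called in this comparison to 239, against 50 without it. The other copy lay on the opposite side: itga6.S had 0.20, 0.30 and 0.35 RPKM in dissociated caps, against 0.41, 2.06 and 1.01 RPKM in controls, too low to be tested. The ratio of itga6.L to itga6.S was between 53.0 and 68.2 in dissociated caps and between 4.72 and 15.3 in the 4 controls.

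itga3.S had 2.01, 2.06 and 2.37 RPKM in dissociated caps 1 to 3, against 4.10, 6.26 and 5.67 RPKM in controls 1 to 3. Here too the groups were apart, with all dissociated libraries low (log2 change -0.998 ± 0.26, limma adjusted p = 0.225). itga3.L had 1.05, 0.65 and 0.97 RPKM in dissociated caps, against 1.44, 2.90 and 3.86 RPKM in controls (log2 change -0.93 ± 0.32, limma adjusted p = 0.368). Over all transcripts, 8.17% lay below every control and 6.63% above. lamb1.L and the ITGB3 model Xelaev18043375m had larger fitted changes (1.60 ± 0.84 and -1.12 ± 0.50), and their groups overlapped. Within control sets, however, both lay on one side: lamb1.L had 3.72, 19.8 and 14.8 RPKM in dissociated caps 1 to 3, against 0.39, 10.8 and 2.39 RPKM in controls 1 to 3, and ITGB3 had 0.05, 0.04 and 0.45 RPKM, against 0.16, 1.96 and 3.81 RPKM. Blocking by control set gave adjusted p = 0.0746 for lamb1.L and 0.171 for ITGB3. Without control 1, ITGB3 was called lower (log2 change -1.69, adjusted p = 0.0481). fn1.S had 54.0, 33.3 and 29.8 RPKM in dissociated caps, against 70.9, 31.9 and 51.7 RPKM in controls, which overlap. Neural marker transcripts (14 listed) summed to between 676 and 1391 RPKM in dissociated caps and between 104.7 and 404.1 RPKM in controls 1 to 3, and the 17 epidermal ones to between 495 and 1060 RPKM and between 1254 and 2556 RPKM. Their part in the integrin values was not tested.

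**Figure D4:**
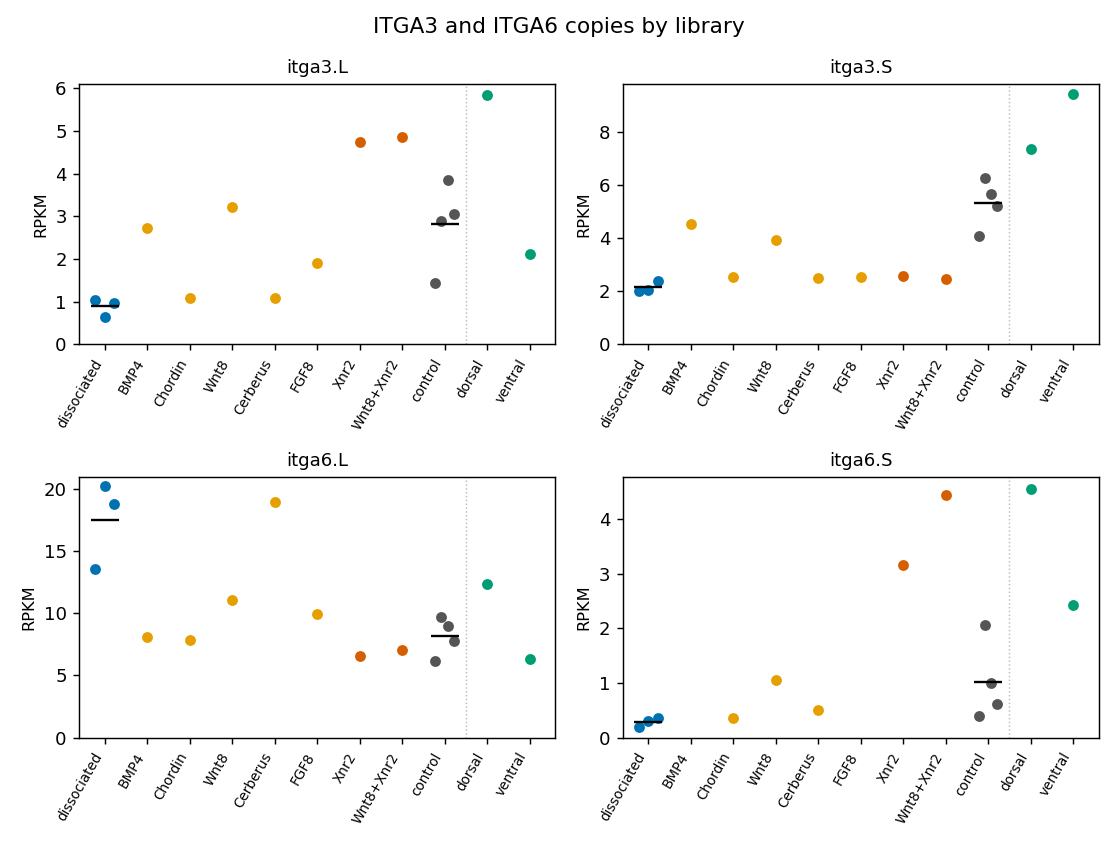
RPKM of both copies of ITGA3 and ITGA6, laminin receptor chains, in every library that lists them, with treated caps left of the control caps and embryo parts behind the dotted line. Points are single libraries and black bars are group means. Dissociated caps lie below the control caps for itga3.S (2.01 to 2.37 RPKM) and above them for itga6.L (13.6 to 20.3 RPKM).

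BMP4, Chordin, Wnt8, Cerberus and FGF8 caps gave no called member. Limma called 0 of 26 members in BMP4 caps (beside 0.43% of all transcripts), 0 of 23 in Chordin caps (0.0128%), 0 of 23 in Wnt8 caps (0.0758%), 0 of 20 in Cerberus caps (0.0753%) and 0 of 22 in FGF8 caps (0.168%). Voom on recovered reads called 0 in all 5 as well. At an unadjusted p under 0.05 there were 0 members in BMP4 caps (beside 2.61% of all transcripts), 1 in Chordin caps (2.95%), 3 in Wnt8 caps (2.04%), 2 in Cerberus caps (3.44%) and 2 in FGF8 caps (3.58%).

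The laminin receptor chains described for dissociated caps are given here side by side, since these comparisons share their controls. itga3.S had 2.54 RPKM in Chordin caps, 2.50 RPKM in Cerberus caps and 2.55 RPKM in FGF8 caps, all below the 4 controls (4.10 to 6.26 RPKM), with log2 changes of -0.82, -0.84 and -0.82. Xnr2 caps (2.59 RPKM) and Wnt8 plus Xnr2 caps (2.47 RPKM) lay below the 4 controls as well, with log2 changes of -0.80 and -0.85. A low itga3.S was thus not particular to Chordin, Cerberus and FGF8 caps. The sum of both ITGA3 copies differed from this. It was 3.63 RPKM in Chordin, 3.59 in Cerberus and 4.47 in FGF8 caps, and 2.71 to 3.34 RPKM in dissociated caps. All of these lay below the 4 controls (5.53 to 9.54 RPKM). In Xnr2, Wnt8 plus Xnr2, Wnt8 and BMP4 caps the sum was 7.34, 7.34, 7.175 and 7.26 RPKM, inside the control range. In Wnt8 caps itga3.S had 3.94 RPKM, also below the 4 controls (log2 change -0.34), and in BMP4 caps 4.52 RPKM, inside the control range. itga6.L had 18.9 RPKM in Cerberus caps, against 6.19 to 9.73 RPKM in the 4 controls and 9.00 RPKM in its own control (log2 change 1.13 ± 0.36, unadjusted p = 0.0117, limma adjusted p = 0.972). In Chordin caps it was at 7.83 RPKM, within the controls. The neural marker transcripts listed summed to 1070 RPKM in Chordin caps against 403.7 RPKM in control 1, to 908.1 RPKM in Cerberus caps against 110.2 RPKM in control 3, and to 876.2 RPKM in FGF8 caps against 99.1 RPKM in control 4, and their part was not tested.

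Wnt8 caps had both gamma 1 chains above every control, lamc1.L at 27.2 RPKM and lamc1.S at 20.8 RPKM. Control 3, their own control, had 20.1 and 18.4 RPKM, so the ratios from recovered reads were 1.35 and 1.13. For lamc1.S control 3 was the highest control. Cerberus caps, also of set 3, had 18.9 RPKM of lamc1.S, above every control as well but 1.02 times control 3. lamb1.L was above every control too, at 12.1 RPKM in Wnt8 caps, against 2.39 RPKM in its own control, a ratio of 5.07 from recovered reads (95% exact interval 4.64 to 5.54). In Cerberus caps lamb1.L had 9.38 RPKM, which is 3.93 times the same control but inside the range of the 4 controls. The members with an unadjusted p under 0.05 were itgb6.L (1.64 RPKM, against 0.10 to 0.42 RPKM in controls), col18a1.S (4.41 RPKM, against 0.64 to 2.23 RPKM) and col17a1.L, a collagen of hemidesmosomes (3.65 RPKM, against 0.13, 0.42 and 2.08 RPKM in the 3 controls that list it). Each lay above its controls, and 9 of 23 members did, beside 19% of all tested transcripts. Of the 23, itgb6.L was the 1 member below 1 RPKM in control 3, so it entered the test through the Wnt8 library. In BMP4 caps 9 of 26 members lay above every control, beside 21.1%. Both fibronectins were among them by a small margin, with fn1.S at 71.7 RPKM and fn1.L at 37.8 RPKM. Control 1, the BMP4 library's own control, was the highest control for both. Against control 1, recovered reads gave ratios of 1.94 for the COL27A1 transcript Xetrov90019767m.1 and 1.575 for itga5.L. For the other members above every control they gave 1.005 to 1.066. COL27A1 was at 0.82 RPKM in control 1, and 3 of the 26 were below 1 RPKM there, so the filter acts here too. The ITGB3 model Xelaev18043375m had 2.25 RPKM in BMP4 caps, against 0.16 RPKM in control 1 (269 and 16 reads), but controls 2 to 4 had 1.96 to 3.81 RPKM. In Wnt8 and Cerberus caps this model had 1.04 and 0.49 RPKM, against 3.81 RPKM in their own control. In FGF8 caps it had 0.54 RPKM, against 2.87 RPKM in control 4. All 3 values lay above control 1. The median log2 change of all transcripts was 0.16 in BMP4 caps. The 18 listed mesoderm marker transcripts summed to 808.7 RPKM in BMP4 caps and 5.16 RPKM in control 1, where 4 of them were at 0, and their part was not tested. In Cerberus caps 5 of 20 members lay above every control, beside 22.1%. Below every control lay itga3.S and itga3.L in Cerberus caps, itga3.S and the ITGB5 model Xelaev18046921m in Wnt8 caps, and col18a1.L in BMP4 caps. The shares of all transcripts below every control in these caps are not given here.

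FGF8 caps had laminin beta 1 above every control, with lamb1.S at 21.2 RPKM and lamb1.L at 12.3 RPKM. For lamb1.S the log2 change was 3.17 ± 1.10 against 4 controls (limma adjusted p = 0.968) but 0.83 against its own control, which had 11.5 RPKM. Without control 4 it was called (log2 change 3.96, adjusted p = 0.0153). In FGF8 caps 3 of 22 members lay above every control and 3 below, beside 15.8% and 23.6%. In Chordin caps 0 of 23 lay above and 5 below, beside 11.7% and 18.3%.

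The dorsal part of the embryo was set against the ventral part, 1 library each, to see which members differ between the sides of the gastrula. No member of 25 passed 4-fold on the log2(RPKM + 1) scale with 5 RPKM or more on the higher side, beside 0.44% of 14997 transcripts higher dorsally and 0.267% lower. Fibronectin and its receptor were even across the embryo. fn1.L had 82.1 RPKM in the dorsal part and 77.4 RPKM in the ventral part, itga5.L had 30.9 and 31.3 RPKM, and Xelaev18032868m had 37.1 and 34.9 RPKM. These levels lie above those of the 4 control caps for all 3 transcripts. The other ITGB1 model, Xelaev18030727m, had 22.6 RPKM in the dorsal part and 23.8 RPKM in the ventral part, both below the control caps.

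Laminin alpha 1 had the largest dorsal excess on the log2(RPKM + 1) scale. lama1-like.L had 7.37 RPKM in the dorsal part and 1.22 RPKM in the ventral part, a ratio of 6.02 from recovered reads (95% exact interval 5.33 to 6.82, counting error only), or 1.91 on that scale. Its ratio is thus over 4 without a pseudocount. Integrin alpha transcripts higher dorsally were itga3.L (5.85 RPKM dorsal, 2.13 RPKM ventral), itga6.L (12.3 RPKM dorsal, 6.28 RPKM ventral), itga6.S (4.56 RPKM dorsal, 2.43 RPKM ventral) and itga2.L, a collagen receptor chain at or below 0.02 RPKM in all caps that list it (2.64 RPKM dorsal, 0.30 RPKM ventral). The other ITGA3 copy, itga3.S, was lower dorsally, with 7.37 RPKM in the dorsal part and 9.46 RPKM in the ventral part. Among collagens, col9a1.L had 1.88 RPKM dorsally and 0.33 RPKM ventrally, and col3a1.S 2.12 and 0.25 RPKM, while col18a1.L had 7.98 RPKM in the dorsal part and 15.2 RPKM in the ventral part. The COL28A1 transcript LOC100490088.L had 0.62 RPKM dorsally and 1.87 RPKM ventrally. The copies of laminin beta 1 split: lamb1.L had 32.0 RPKM in the dorsal and 18.5 RPKM in the ventral part, whereas lamb1.S had 15.9 and 31.7 RPKM. Their sum was 47.9 RPKM in the dorsal part and 50.2 RPKM in the ventral part, so the gene as a whole was nearly even. With no replicate, these ratios hold for these 2 libraries.

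**Figure D5:**
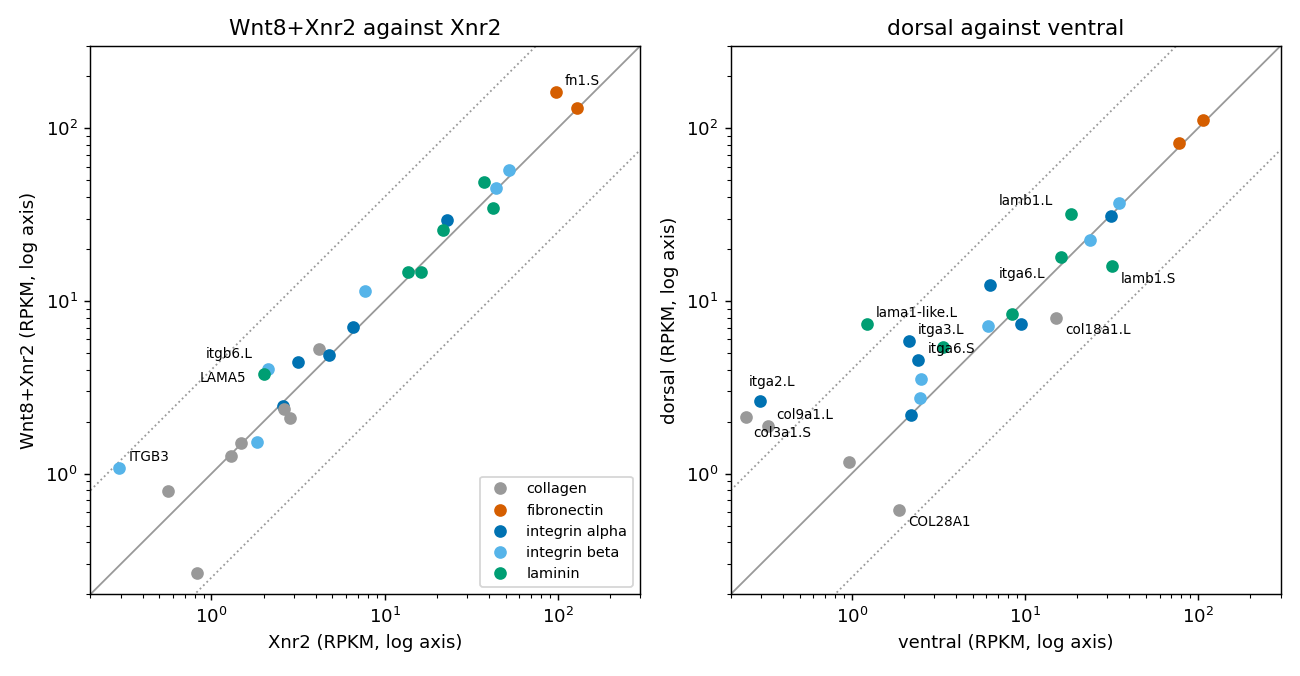
RPKM of each listed member in Wnt8 plus Xnr2 against Xnr2 caps (left) and in the dorsal against the ventral part (right), on log axes, 1 library each. The solid line marks equal values and the dotted lines a ratio of 4 without a pseudocount. fn1.S lies above the line on the left (162.6 and 97.6 RPKM), and lama1-like.L on the right (7.37 and 1.22 RPKM).

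Several members differed between control sets. col5a2.S, matched to COL2A1, had 3.20, 4.29 and 4.09 RPKM in the treated caps of set 1 and 4.73 RPKM in control 1, and 2.47, 2.86 and 2.10 RPKM in the treated caps of set 4 and 3.47 RPKM in control 4. In sets 2 and 3 it was at or below 0.11 RPKM in treated and control caps alike. The COL7A1 transcript Xetrov90008423m.L had 5.79 RPKM in dissociated 2 and 5.84 RPKM in control 2, and rounded to 0.00 RPKM in dissociated 1 and 3 and in controls 1 and 3. itga4.L had 0.82, 2.07 and 1.37 RPKM in the treated caps of set 1 and 1.95 RPKM in control 1, and at most 0.25 RPKM in sets 2 and 3. For col5a2.S and COL7A1 the gap between the high and the low sets was larger than any difference within a set. Set 1 was itself spread for itga4.L, from 0.82 to 2.07 RPKM. The cause of these gaps was not tested.

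A wider list of 105 matrix and adhesion genes, 235 transcripts with no overlap with the members, was read in the same fits. After Xnr2, 13 of 94 tested transcripts were called higher (beside 3.69% of all transcripts) and 0 lower (beside 0.447%): 10 of 27 glycoprotein and proteoglycan transcripts, 3 of 24 matrix enzyme transcripts and 0 of 43 transcripts of cytoplasmic linkers of integrins such as talin and vinculin. After Wnt8 with Xnr2 the counts were 8 of 25, 3 of 25 and 0 of 44, beside 3.5% of all transcripts. BMP4 caps had 2 of 93 called higher, both copies of has2, beside 0.43% of all transcripts in either direction. Limma called 0 in the dissociated, Chordin, Wnt8, Cerberus and FGF8 comparisons. The median log2 change of the 27 glycoprotein and proteoglycan transcripts was 1.26 after Xnr2, and that of the 43 linkers -0.38, beside -0.14 over all transcripts. As with the members, transcripts near 0 in control 4 enter only where the treated library is high. Most of those called after Xnr2 were below 1 RPKM in control 4: both copies of has2, plod2-like, sparc and fbn3, and efemp2.L and egflam-like.L. The filter therefore acts on the counts and medians of the classes, which cannot show a difference between them.

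Transcripts of PLOD2 and HAS2 had the largest called changes on this list. plod2-like.L, a lysyl hydroxylase that prepares collagen for cross-linking, had 72.2 RPKM in Xnr2 caps and 98.9 RPKM in Wnt8 plus Xnr2 caps, against 0.52 ± 0.13 RPKM in controls (SD, n = 4), with log2 changes of 5.59 ± 0.26 and 6.04 ± 0.26. has2.L, which makes hyaluronan, had 30.2 RPKM in Xnr2 caps, 37.4 RPKM in Wnt8 plus Xnr2 caps and 5.62 RPKM in BMP4 caps, against 0.02 ± 0.01 RPKM in controls (n = 4). HAS1, another hyaluronan synthase, was far more abundant and lay lower: Xelaev18019732m had 315.3 RPKM in Xnr2 caps, against 735.8, 2807, 1905 and 2212 RPKM in controls 1 to 4 (log2 change -2.44 ± 0.65, limma adjusted p = 0.0964), and Xelaev18019733m had 201.5 RPKM, against 209.6 to 871.2 RPKM. A low HAS1 was not particular to Xnr2 caps. Xelaev18019732m had 179.3 RPKM in Chordin caps, 459.2 in Cerberus caps and 322.8 in Wnt8 plus Xnr2 caps. Dissociated caps 1 to 3 had 403.1, 443.0 and 720.8 RPKM. All of these lay below every control, while BMP4, Wnt8 and FGF8 caps lay inside the control range. Transcripts of P4HB, P4HA2, PLOD1 and PLOD3, which also hydroxylate collagen, were tested after Xnr2 and not called. adamts1.L, a protease that cuts proteoglycans, had 32.0 RPKM in Xnr2 caps and 41.2 RPKM in Wnt8 plus Xnr2 caps, against 2.31 ± 0.92 RPKM in controls (n = 4). Blocking by control set, its adjusted p after Xnr2 was 0.0541, and that of has2.S in BMP4 caps 0.0681. The FBLN1 model Xetrov90026715m.L, a fibulin, had 34.4 RPKM in Xnr2 caps, against 2.45 ± 1.56 RPKM in controls (n = 4, log2 change 3.46 ± 0.70, limma adjusted p = 0.0271). fbn3.L, matched to the fibrillin FBN2, had 4.43 RPKM in Xnr2 caps and 8.40 RPKM in Wnt8 plus Xnr2 caps, against 0.04 ± 0.02 RPKM in controls (n = 4). In the embryo plod2-like.L had 43.8 RPKM in the dorsal part and 13.9 RPKM in the ventral part. On the log2(RPKM + 1) scale 0 of 106 transcripts of the list passed 4-fold, beside 0.44% of all transcripts higher dorsally and 0.267% lower. Without a pseudocount some ratios are over 4. fbn3.L had 5.56 RPKM dorsally and 0.96 RPKM ventrally, and the MATN4 transcript LOC100492840-like.S had 1.41 and 8.07 RPKM.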

How the data were processed

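RNA abundance was measured by RNA sequencing (single 100-bp reads) in 16 libraries, grouped by their labels. Per the file headers, the authors deposited RPKM values, and the transcripts are those of the JGI9.1 genome. Human symbols come from a protein comparison, per the file headers. Per the submitters' processing notes, TopHat2 2.09 and DESeq were used, but what each did, and how reads were counted, is not given in the sources used here. Tables of injected caps and embryo parts hold transcripts with a mean of at least 1 RPKM, per the file headers.

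Tests were 2-sided limma fits of log2(RPKM + 1) with a variance trend (limma 3.58.1, R 4.3.3), with Benjamini-Hochberg adjustment over all transcripts tested and a call at 0.05. Dissociated caps 1 to 3 were set against controls 1 to 3, for transcripts averaging at least 1 RPKM over the 6 libraries. For each injected library the comparison was with all 4 controls, with residual spread taken from control and dissociated libraries, and a transcript entered if the injected library and its own control averaged at least 1 RPKM. For control set 4, transcripts without a read in the table of every transcript were left out. Fold changes on this scale understate those of low genes. Comparisons of 1 library with 1 have no test and count ratios of 4-fold or more on the log2(RPKM + 1) scale with at least 5 RPKM.

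Since RPKM keeps read counts in whole steps of one value per transcript and library, reads were worked back from it: of 30539 transcripts that have 3 or more values above 0, 30503 gave whole reads (99.88%, whole to within 0.01 reads). They served for 95% exact binomial intervals of ratios, which cover counting error only, and for voom in limma, with library sizes scaled by the trimmed mean of M-values (TMM). Scripts were tested on simulated data.

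Replicate numbers paired the samples: deviations of same-numbered control and dissociated libraries from their group means correlated at 0.58, 0.39 and 0.63 (Pearson, across transcripts, which are not independent replicates). The labels name the control of each treated library. A fit with the control set as a block was an alternative.

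The members and gene lists were chosen with earlier results of these data known. Named with values are all called members, the 12 of highest control level, all transcripts of FN1, ITGA5, ITGB1, ITGA6, ITGB4, LAMA5, LAMB1, LAMC1, COL2A1 and COL18A1, and up to 5 called genes of the wider list per comparison, taken by size of change. ITGA2, ITGA3, ITGB3, ITGB6 before its call, COL3A1, COL9A1 in the embryo, COL17A1, COL27A1, COL28A1 and HAS1 were named after their values were seen. So were the transcripts that follow control sets and the low collagens. No genome of the files' build was used, so no coordinates or sequences are given.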

Additional observations from a re-analysis of the deposited data

Results flagged for a closer look

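One of 30 transcripts with a value in all 4 control caps had a library far from the others. lamb1.S had 11.5 RPKM in control 4, against 0.30 to 0.60 RPKM in controls 1 to 3, and the gap to the nearest control was 0.974 of the whole range. Chance flags about 1 in 20 such groups. Its copy lamb1.L had 5.54 RPKM in control 4, inside the range of the other controls. The treated caps of set 4 had 21.2 to 49.1 RPKM of lamb1.S, and every other cap library that lists it had at most 1.60 RPKM.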

How the results depend on the processing

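In dissociated caps the count was 1 with voom on recovered reads and the replicate block together (itga6.L, an alternative chosen after seeing the data), and 0 to 1 when each library was left out in turn (1, ITGB3, without control 1). In FGF8 caps it was 0 to 1 (1, lamb1.S, without control 4). In Wnt8 plus Xnr2 caps it was 3 with a pseudocount of 0.1, 8 with a pseudocount of 5 and 4 to 6 with a library left out. In Xnr2 caps it was 3 to 5 with a library left out. The members called in Xnr2 caps also differed with the pseudocount: itgb6.L and lamb1.S were added with 5, and the COL13A1 transcript was lost with 0.1. For the dorsal against the ventral part the count was 1 with a pseudocount of 0.1 and 2 at 2-fold. The replicate block fits differences within control sets. With it, 3 members were called in Xnr2 caps and 4 in Wnt8 plus Xnr2 caps (3 higher, 1 lower), 0 in the other comparisons. In sets 1 and 3 its estimate for an injected library also draws on the dissociated library of that set. Beside the calls named with their blocked values above, the block lost those of sparc.S in Wnt8 plus Xnr2 caps (adjusted p = 0.0560) and sdc1.L in Xnr2 caps (adjusted p = 0.111). The block changed no other call of the named genes. The block also raised the calls over all transcripts in dissociated caps, as given above. Shares over all transcripts under the other settings are not given here. The member counts of this paragraph therefore do not show whether members moved apart from other transcripts.

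Called members kept their call in 100 of 124 alternative fits, and named members not called were called in 24 of 421, with 0 in the opposite direction. Called genes of the wider list kept theirs in 330 of 362. Leaving out the filter on low values was run for dissociation only, since the other tables hold no transcripts below it. The injected libraries and embryo parts have no replicates. COL13A1 rests on 25 and 6 reads, so its fold is the least precise of those called. The cause of each change was not tested.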
